A study of Mus musculus with 25 samples.

Results

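Of the 43411 genes in the counts table of microglia from mice with deletion of Bin1 in neurons, 8 were followed here as markers of blood monocytes and neutrophils. They were chosen by symbol, which was matched from the Ensembl identifiers of the table, and not by a cutoff on their values. Earlier results of these data were known when they were chosen. The monocyte markers were Ccr2, Ly6c2 and Plac8, and the neutrophil markers were S100a8, S100a9, Ngp, Camp and Lcn2. The question was whether Ccr2 moved with the other blood-cell markers in single mice.

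Microglia were sorted by FACS as CD11b+; CD45med cells from the brain, without the cerebellum and the olfactory bulbs, of mice perfused with ice-cold PBS, and the RNA of each mouse made 1 library. The homozygous Bin1-cKO group (Homo) held 10 mice that were Bin1flox/flox and Thy1-Cre+ (5 females and 5 males). The heterozygous Bin1-cKO group (Het) held 7 mice that were Bin1flox/wt and Thy1-Cre+ (4 females and 3 males), and the WT group held 6 littermates that were Bin1flox/wt and Thy1-Cre- (2 females and 4 males). All 23 mice were 3 months old, of the strains B6.129S6-Bin1tm2Gcp/J and FVB/N-Tg(Thy1-cre)1Vln/J, and all carried at least 1 floxed Bin1 allele, the WT littermates included. Thy1-Cre deletes Bin1 in excitatory neurons of the forebrain after birth, so the sorted cells were not the target of the deletion. The animal numbers of all WT and Het mice lay in the 200s, and those of the Homo mice in the 300s (6 mice) and the 400s (4 mice), so genotype and number range cannot be told apart. Mice are named here by genotype and replicate number.

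Monocytes and neutrophils are myeloid cells of the blood that also carry CD11b. Classical monocytes are known by the chemokine receptor CCR2 and the surface protein Ly6C, and enter inflamed tissue along gradients of CCR2 ligands such as CCL2. Neutrophils are made in the bone marrow, fill their secondary granules with proteins such as lactoferrin, cathelicidin and lipocalin 2 late in maturation, and hold the calcium-binding pair S100A8 and S100A9 in large amounts in the cytosol. Resting microglia are usually described as low in Ccr2 and in these granule proteins. In RNA from a sorted population, fewer cells of a type and less RNA per cell cannot be told apart.

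Positions are those of GRCm38 in GENCODE M21. Ccr2 (ENSMUSG00000049103.11) lies on the plus strand at chr9:124101950-124113557, and Ngp (ENSMUSG00000032484.8, plus strand, chr9:110419747-110423012) and Camp (ENSMUSG00000038357.10, minus strand, chr9:109847379-109849617) lie on the same chromosome. S100a8 (ENSMUSG00000056054.9, plus strand, chr3:90668978-90670035) and S100a9 (ENSMUSG00000056071.10, minus strand, chr3:90692632-90695721) are close neighbours. Lcn2 (ENSMUSG00000026822.12) is at chr2:32384633-32388252, Plac8 (ENSMUSG00000029322.10) at chr5:100553725-100572245 and Ly6c2 (ENSMUSG00000022584.12) at chr15:75108158-75111970, all on the minus strand. No member overlapped another annotated gene. Of the runs of 50 bases, the read length, in the annotated transcripts, none of Plac8, S100a8, S100a9, Ngp, Camp or Lcn2 was shared with another gene. Ccr2 shared 1.91% of its runs, and Ly6c2 shared 14.5%, most of them with Ly6c1, so the counts of Ly6c2 are uncertain.

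The sequences just upstream of 4 neutrophil markers are shown because nearly all of their counts came from the same 13 mice. They are the RefSeq promoter windows (GRCm38.p6) of the 250 bases before the start site, ended at the first base that GENCODE M21 annotates as exon of the gene, and are printed in the direction of transcription. Capitals mark matches on either strand to TTGCNNAA, a core bound by C/EBP factors, and GAGGAA, a core bound by PU.1.
S100a8, chr3:90668821-90668977, plus strand: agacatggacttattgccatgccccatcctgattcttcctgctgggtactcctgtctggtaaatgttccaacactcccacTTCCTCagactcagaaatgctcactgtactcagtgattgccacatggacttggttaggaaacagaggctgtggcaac
S100a9, chr3:90695722-90695971, minus strand: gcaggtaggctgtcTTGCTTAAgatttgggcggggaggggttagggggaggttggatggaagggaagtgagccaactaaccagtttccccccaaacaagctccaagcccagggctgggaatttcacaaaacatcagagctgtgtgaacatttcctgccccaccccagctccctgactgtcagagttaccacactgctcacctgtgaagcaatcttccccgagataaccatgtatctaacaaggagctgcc
Ngp, chr9:110419558-110419746, plus strand: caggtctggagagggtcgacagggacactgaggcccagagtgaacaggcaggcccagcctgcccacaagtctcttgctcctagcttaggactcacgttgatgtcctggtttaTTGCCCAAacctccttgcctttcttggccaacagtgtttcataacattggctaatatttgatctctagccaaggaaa
Camp, chr9:109849618-109849706, minus strand: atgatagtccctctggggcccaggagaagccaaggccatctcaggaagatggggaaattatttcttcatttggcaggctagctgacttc
Over the full 250 bases, TTGCNNAA was found in the windows of S100a9, Ngp and Lcn2 and in 1 of 2 windows of Plac8, and in 9.56% of the 32851 windows of all genes. In Ngp it was found 2 times, 138 and 11 bases before the start site. The core GAGGAA was found in the windows of S100a8, Lcn2 and Ly6c2 and in the other Plac8 window, and in 23.3% of all windows. An NF-kB motif, GGG and CC with 5 free bases between, was also searched, and was found in the window of Lcn2 and in 45.8% of all windows. None of these motifs was found in the windows of Camp or Ccr2, which says only that these letters are not in those windows. The Lcn2 window begins in an annotated exon, and that of Ccr2 reaches one after its first 17 bases, so these windows are not printed.

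Library totals ranged from 10812887 to 16734746 counts. Levels are in CPM, for which each count was divided by the TMM-adjusted total of its own library, and 3 counts, the most that a count of 0 allows, equalled 0.180 to 0.266 CPM. Comparisons used edgeR's quasi-likelihood test with genotype and sex on 12908 genes, and a call needed both a fold change over 1.5 and a Benjamini-Hochberg adjusted p under 0.05. Of the 8 markers, 7 passed the filter on low counts, all but Ly6c2. The identity of the sorted cells was checked with 12 microglia genes, among them Tmem119, P2ry12 and Cx3cr1, whose summed level was 63650 CPM or higher in each mouse. The sum was lower in Homo mice, at 63650 to 74920 CPM, than in WT littermates, at 74410 to 104400 CPM, and Het mice, at 70230 to 91880 CPM. Of the 12 genes, 1 was fitted higher in Homo than in WT mice, and 1 was called lower, beside 1.75% of all genes tested. Itgam, which encodes CD11b, was at 1866 ± 381.2 CPM (SD, n = 6) in WT littermates and 1230 ± 152 CPM (SD, n = 10) in Homo mice, which edgeR fitted at -0.61 ± 0.11 (log2, standard error) with an adjusted p of 0.000794.

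The level of Ccr2 was higher in Homo mice than in both other genotypes. In WT littermates Ccr2 was at 3.68 CPM in the lowest mouse, 5.04 in the median and 5.70 in the highest. In Het mice the lowest, median and highest levels were 2.81, 6.19 and 9.42 CPM, and in Homo mice 7.85, 12.0 and 20.2 CPM. All 10 Homo mice lay above the highest WT littermate, and 8 of 10 lay above all other mice, while Homo mice 1 and 10 lay below Het mouse 4. The Het mice covered the whole range of the WT littermates.

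Mean Ccr2 levels were 4.92 ± 0.700 CPM (SD, n = 6) in WT littermates, 5.80 ± 2.36 CPM (SD, n = 7) in Het mice and 12.5 ± 3.89 CPM (SD, n = 10) in Homo mice. Ccr2 was higher by 1.28 ± 0.23 (log2, fitted value and standard error) in Homo than in WT mice, with an edgeR adjusted p of 0.000812, and by 1.14 ± 0.21 in Homo than in Het mice (adjusted p = 0.000613). Het and WT mice differed by 0.15 on the log2 scale (standard error 0.24, adjusted p = 0.926). These calls rest on 33 to 279 counts of Ccr2 per mouse. Among all genes tested, 3.4% were called between Homo and WT mice and 6.62% between Homo and Het mice. Of the 7 markers tested, 1 was called in each of these comparisons, and it was Ccr2 in both.

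The rise of Ccr2 was of like size in the separate sets of Homo mice. With the 6 mice of the 300s alone the log2 fold change against WT was 1.27 (adjusted p = 0.00241), and with the 4 mice of the 400s alone it was 1.30 (adjusted p = 0.00796). Both use the same WT littermates. The mean levels were 12.2 ± 3.25 CPM (SD, n = 6) in the 300s and 13.01 ± 5.21 CPM (SD, n = 4) in the 400s.

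**Figure D1:**
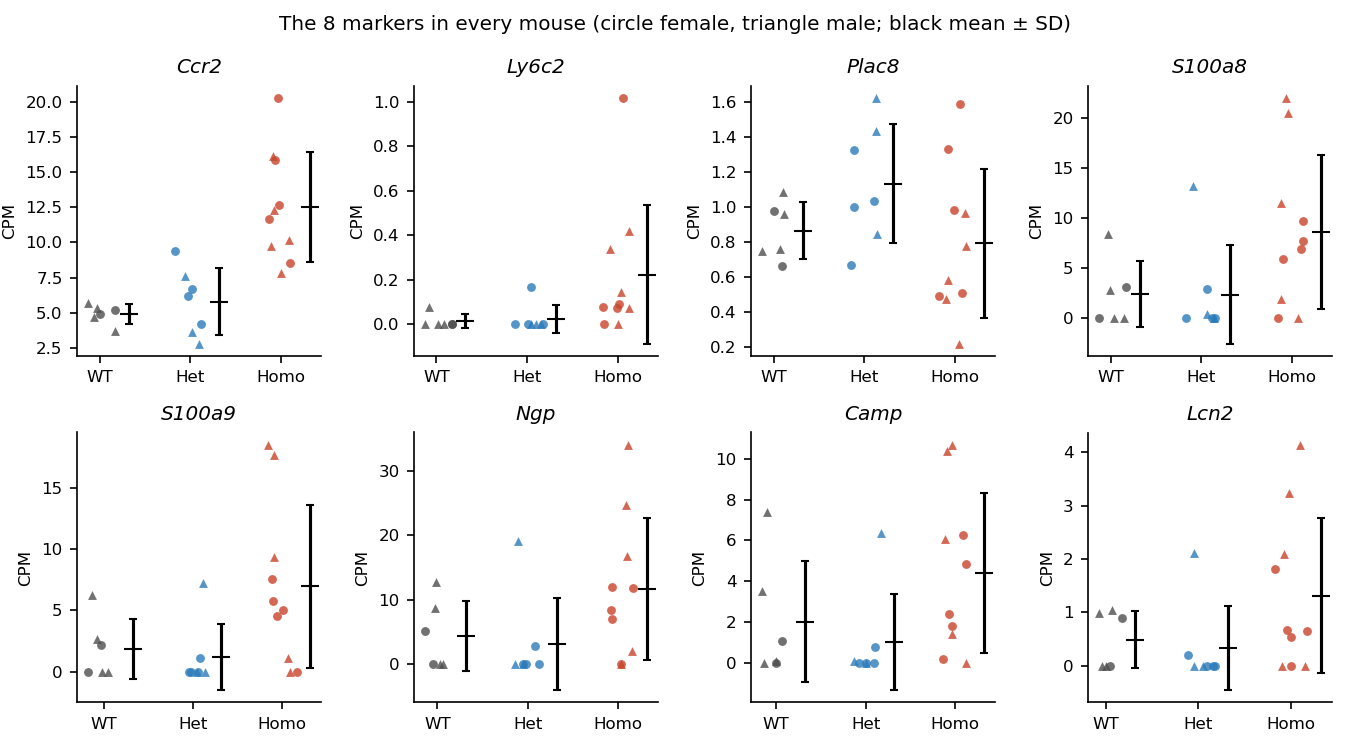
CPM of the 8 markers (y axis, linear, a scale of its own in each panel) in every mouse by genotype (x axis), with females as circles, males as triangles, and the mean ± SD in black. Ccr2 lay above the highest WT littermate in all 10 Homo mice, whereas the 5 neutrophil markers ran from 0 CPM upward in every genotype.

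Neither of the other monocyte markers was called. Ly6c2, which encodes a Ly6C protein of classical monocytes, had 1 count in a single WT littermate, 2 counts in a single Het mouse, and 1 to 14 counts in 8 of 10 Homo mice. Its highest levels were 1.02 CPM in Homo mouse 5, 0.419 CPM in Homo mouse 6 and 0.337 CPM in Homo mouse 8, and the other 20 mice were at 0.167 CPM or lower. Without the filter on low counts, Homo mice were fitted 3.33 ± 1.19 above WT (log2, standard error) with an edgeR adjusted p of 0.0967, which was not called and rests on 1 count in the WT group.

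Plac8, a small cysteine-rich protein of myeloid and lymphoid cells, was listed in all 23 mice with 3 to 26 counts. Its lowest, median and highest levels were 0.660, 0.858 and 1.08 CPM in WT littermates, 0.667, 1.03 and 1.62 CPM in Het mice, and 0.219, 0.680 and 1.59 CPM in Homo mice. The 3 groups overlapped, and Homo mouse 9, the lowest of all for Plac8, had a Ccr2 level of 12.3 CPM. The fitted log2 fold change was -0.17 against WT (standard error 0.36, adjusted p = 0.813) and -0.52 against Het mice (standard error 0.33, adjusted p = 0.269).

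The 5 neutrophil markers were present or nearly absent as a group in single mice. S100a8 and S100a9 form calprotectin, Ngp is a cathelicidin-related granule protein, Camp is the cathelicidin precursor, and Lcn2 binds bacterial siderophores. Their summed count was between 88 and 1210 in 13 mice, and between 0 and 6 in the other 10 mice, with none in between. All 5 were listed in 12 mice, 4 in Homo mouse 10 (without Lcn2), 1 or 2 in WT mouse 5, Het mouse 7 and Homo mouse 4, and none in 7 mice. The sum reached 88 counts in 3 of 6 WT littermates (mice 1, 4 and 6), in 2 of 7 Het mice (mice 2 and 8) and in 8 of 10 Homo mice, all but mice 4 and 9.

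In CPM, the sum of the 5 was 12.4, 18.7 and 35.7 in WT mice 1, 4 and 6, and 0 to 0.0736 in WT mice 2, 5 and 7. In Het mice it was 7.83 in mouse 2, 48.1 in mouse 8 and 0.478 or lower in the other 5. In Homo mice it was 87.9 in mouse 7, 78.0 in mouse 8, 45.8 in mouse 6, 35.9 in mouse 3, 32.2 in mouse 5, 22.3 in mouse 1, 20.9 in mouse 2 and 6.51 in mouse 10, against 0.183 in mouse 4 and 0 in mouse 9. The genotypes overlapped, since mice at or near 0 stood in each of them. The mice at 88 counts or more were 6 of 11 females and 7 of 12 males. They were 6 of 6 mice of the 300s, 2 of 4 of the 400s and 5 of 13 of the 200s.

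**Figure D2:**
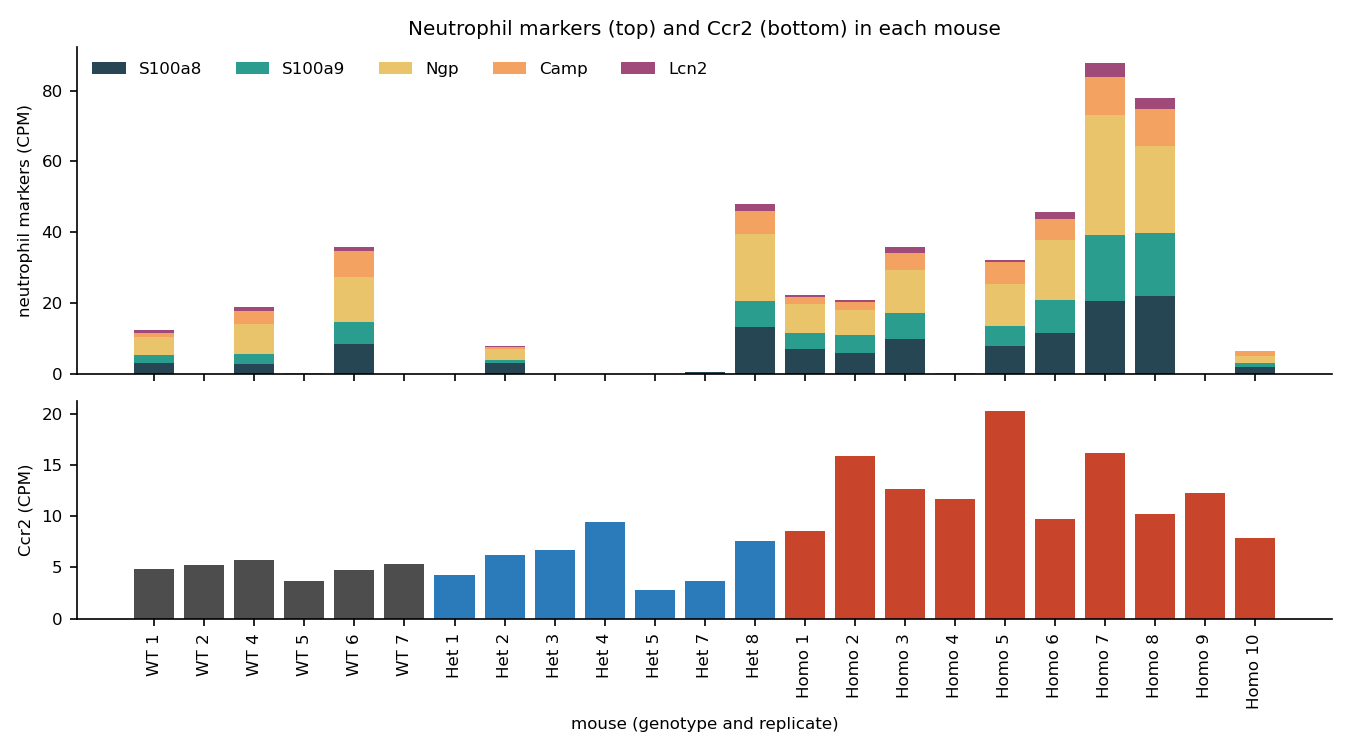
Stacked CPM of the 5 neutrophil markers in each mouse (top, bars from 0) above the CPM of Ccr2 in the same mouse (bottom, coloured by genotype: grey WT, blue Het, red Homo), with 1 library per bar. The neutrophil sum was highest in Homo mouse 7 at 87.9 CPM and was 0.183 CPM or lower in Homo mice 4 and 9, where Ccr2 was at 11.7 and 12.3 CPM.

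Where they were present, Ngp and S100a8 made up most of the summed count of the 5 transcripts. Over the 13 mice, the share of the summed count was 36.9% ± 4.14 for Ngp (SD, n = 13), 26.5% ± 5.09 for S100a8, 18.7% ± 3.18 for S100a9, 14.1% ± 4.56 for Camp and 3.75% ± 1.85 for Lcn2. Ngp was between 31.7% and 46.4% in each mouse, and had the largest share alone in 12 of 13 and together with S100a8 in Het mouse 2. In WT mouse 1, Ngp made up 41.8% of 165 counts (95% exact Clopper-Pearson interval 34.2% to 49.7%), and in Homo mouse 7 it made up 38.7% of 1210 counts (35.9% to 41.5%). Shares of other mice differed by more than counting error, with Ngp at 46.4% in WT mouse 4 (40.1% to 52.8%) and 31.7% in Homo mouse 8 (29.0% to 34.4%), and Camp at 20.6% in WT mouse 6 (17.1% to 24.6%) and 8.11% in Homo mouse 1 (5.26% to 11.8%). The intervals cover counting error only. Lcn2 was at 0 of 88 counts in Homo mouse 10, which allows a share of up to 4.11% by the same method.

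Over these 13 mice, log2 CPM values of the 10 pairs of neutrophil markers had Pearson's r between 0.782 and 0.968 and Spearman's rho between 0.769 and 0.956 (permutation tests, two-sided, adjusted p between 2e-05 and 0.00119 for r and between 6.67e-05 and 0.00294 for rho). Without the 2 mice farthest from the median, r was between 0.769 and 0.947. The 13 mice come from 3 genotypes and were pooled here. No test was made over all 23 mice, since the values fall into separate clusters.

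Ltf, Chil3 and Cd177 were found almost wholly in the same 13 mice, and Mmp9 was not. Ltf, the gene of lactoferrin, had 906 counts in the 13 mice and 1 count in the other 10. Chil3 had 704 counts against 1, and Cd177, a neutrophil surface protein, 169 against 0, whereas Mmp9, a gelatinase of neutrophil granules, had 298 against 289. Genes of the primary granules, which are made at an earlier stage of neutrophil maturation, were at or close to 0: Mpo had 12 counts in all, Prtn3 11, Elane 9 and Ctsg 0. Retnlg and Mmp8 had 14 and 28 counts in all. Csf3r and Cxcr2, receptors of mature neutrophils, were listed in all 23 mice and did not divide them, with 588 counts of Cxcr2 in the other 10 mice.

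Hemoglobin transcripts, a sign of red cells, were present in another set of mice. The sum of Hba-a1, Hba-a2, Hbb-bs and Hbb-bt was at least 20 counts in 14 mice and 3 or fewer in the other 9. Both sums were at 20 counts or more in 6 mice, the neutrophil sum alone in 7, the hemoglobin sum alone in 8 and neither in 2. WT mouse 7 and Het mouse 1 had 31.9 and 49.99 CPM of hemoglobin and no count of a neutrophil marker, while Homo mouse 3 had no hemoglobin count and 513 counts of the neutrophil markers. The 12 markers of T and NK cells summed to 0.426 to 3.17 CPM per mouse, with 254 counts of Lck, 156 of Ccl5 and 2 of Cd3e over all mice, and 4 of the 12, Nkg7 among them, at 0 in every mouse. The 8 markers of B cells summed to 504.6 to 876.4 CPM, nearly all of it Ighm (207300 counts) and Cd79b (12640 counts), while Pax5 was at 0. The 6 platelet markers summed to 22.8 to 65.2 CPM, nearly all of it Gp9 (14686 counts), while Ppbp had 4 counts and Gp6 none. The part of red cells, lymphocytes and platelets in the Ccr2 difference was not tested.

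**Figure D3:**
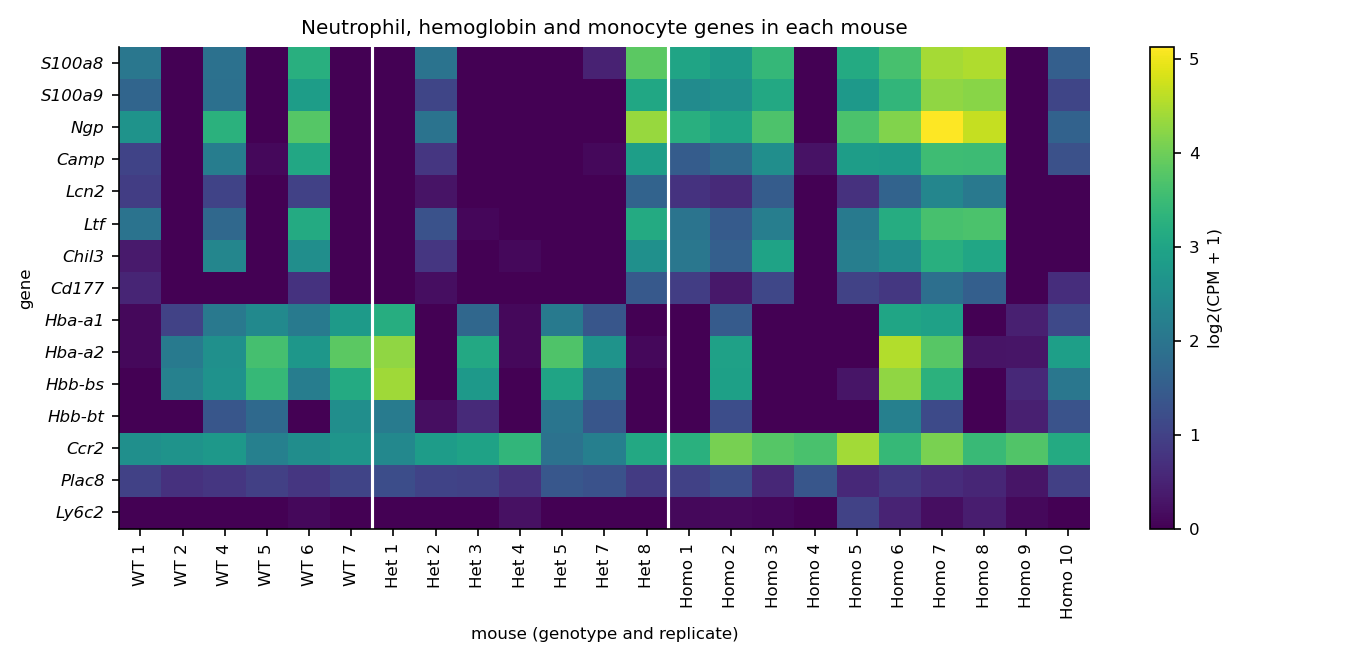
Log2(CPM + 1) (colour) of the 5 neutrophil markers, Ltf, Chil3 and Cd177, 4 hemoglobin genes and the 3 monocyte markers (rows) in the 23 mice (columns, with white lines between WT, Het and Homo mice). The rows of S100a9 and Ngp are above 0 in the same 13 mice, Ccr2 in all 23, and the 4 hemoglobin genes sum to 20 counts or more in 14 mice, of which 6 are among the 13.

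None of the 5 neutrophil markers was called between genotypes. S100a9 was at 1.85 ± 2.46 CPM (SD, n = 6) in WT littermates, 1.20 ± 2.71 CPM (SD, n = 7) in Het mice and 6.96 ± 6.65 CPM (SD, n = 10) in Homo mice. The fitted log2 fold changes of Homo against WT mice were 2.16 for S100a9 (standard error 1.13, adjusted p = 0.221), 2.09 for S100a8 (adjusted p = 0.245), 1.70 for Camp (adjusted p = 0.330), 1.67 for Ngp (adjusted p = 0.374) and 1.48 for Lcn2 (adjusted p = 0.407). All 5 were above 0, with standard errors of 1.08 to 1.15, several times that of Ccr2. The 5 varied together between mice and are not independent of each other. Their median log2 fold change was 1.7, beside 0.0116 over all genes tested.

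Against Het mice, the fitted log2 fold changes of the neutrophil markers were between 2.06 for S100a8 (adjusted p = 0.168) and 2.76 for S100a9 (adjusted p = 0.0743), and none was called. This changed with the mice that were included. Without Het mouse 8, all 5 were called, at 3.69 for S100a8 (adjusted p = 0.042) to 4.81 for S100a9 (adjusted p = 0.0157), and 6 of 7 markers were then called in place of 1. Without Homo mouse 9, S100a9 was called as well (2.95, adjusted p = 0.0451). Over all genes, leaving out 1 mouse gave 660 to 943 calls, beside 855 of 12908 (6.62%) in the main fit. With the Homo mice of the 300s alone, S100a9 (3.28, adjusted p = 0.0247) and Camp (2.83, adjusted p = 0.0495) were called, and with those of the 400s alone none was. Between Het and WT mice 0% of genes were called by edgeR, with 998 genes at an unadjusted p below 0.05, and DESeq2 and limma-voom called 0 as well.

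**Figure D4:**
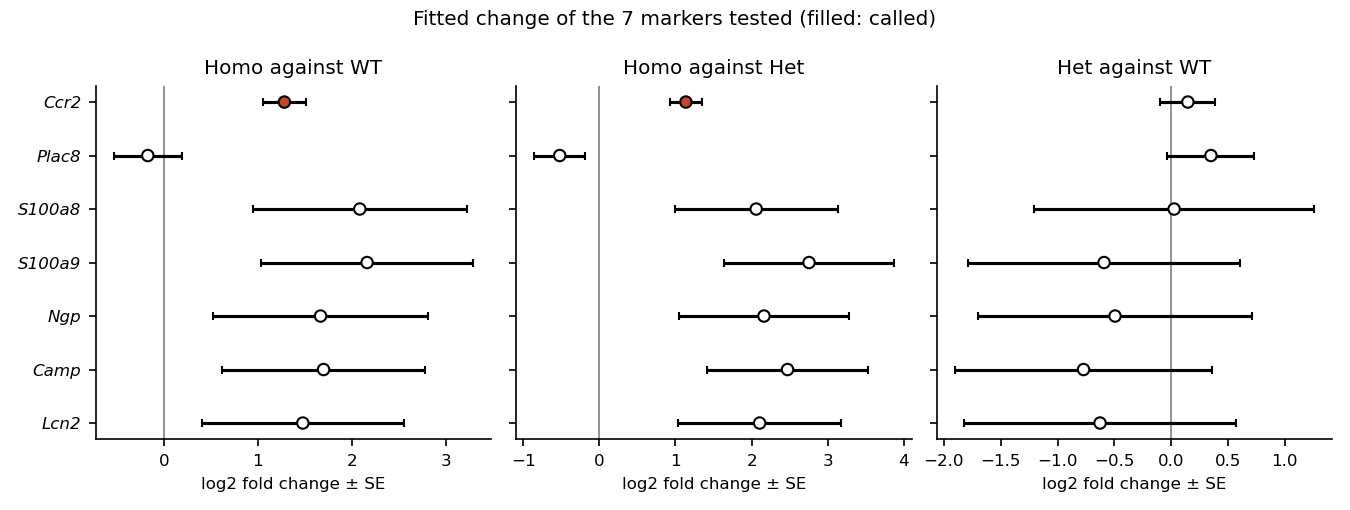
Fitted log2 fold change with its standard error (x axis) of the 7 markers tested (y axis) in the comparisons of Homo with WT, Homo with Het and Het with WT mice, with called values filled in red. Ccr2, at 1.28 and 1.14 with standard errors of 0.23 and 0.21, is the called marker, and the neutrophil markers have larger values with standard errors of 1.06 to 1.15 in the first 2 panels.

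No marker was called between the sexes. Of all genes 0.0697% were called between males and females. The fitted differences of the 5 neutrophil markers, males minus females, were 1.34 to 1.80 on the log2 scale (adjusted p between 0.847 and 0.863), and that of Ccr2 was -0.30 (standard error 0.18, adjusted p = 0.848). For the difference of the Homo effect between the sexes, 0% of genes were called by edgeR, with 644 at an unadjusted p below 0.05, and limma-voom called 0. The difference for Ccr2, males minus females, was -0.24 (standard error 0.46, adjusted p = 0.995).

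Ccr2 was then compared with each other marker within a genotype, which gave 21 relations of log2 CPM values. In the 10 Homo mice, Pearson's r of Ccr2 with the 5 neutrophil markers was between 0.124 for S100a8 and 0.223 for Lcn2, and Spearman's rho between 0.158 and 0.406 (permutation tests, two-sided, unadjusted p between 0.529 and 0.733 for r adjusted p = 0.817 for each r and 0.921 for each rho). Without the 2 Homo mice farthest from the median Ccr2 level, these values of r lay between -0.00347 and 0.0563. In Het mice r was between 0.311 and 0.402, and in WT littermates between 0.198 and 0.297, with adjusted p = 0.817 for each of them (exact permutation tests). Of the 6 WT littermates, mice 2 and 7 tied at 0 for all 5 neutrophil markers, which leaves an exact test few distinct orders. It can hardly pass the adjusted threshold there. In WT littermates r fell to between -0.958 and -0.925 when the 2 farthest mice were left out, so that the values there rest on those 2 mice.

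Single mice went both ways. Homo mouse 7 had the highest neutrophil sum, 87.9 CPM, and the second highest Ccr2 level, 16.1 CPM, and Het mouse 8 had the highest neutrophil sum of the Het mice, 48.1 CPM, with the second highest Het level of Ccr2, 7.60 CPM. Homo mouse 9 had 168 counts of Ccr2 and none of any neutrophil marker, and Homo mouse 4 had 191 counts of Ccr2 beside 3 counts of Camp. At 12.3 and 11.7 CPM their Ccr2 levels were close to the Homo median of 12.0 CPM and above all WT and Het mice. WT mouse 6 had 470 counts of the neutrophil markers and a Ccr2 level of 4.72 CPM, under the WT median of 5.04 CPM. The highest level of Ccr2, in Homo mouse 5, stood beside the highest of Ly6c2, yet without the 2 farthest mice the r of Ccr2 with Ly6c2 over Homo mice went from 0.462 to -0.271.

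The relation of Ccr2 with Plac8 in Het mice was the only one of the 21 with an adjusted p below 0.05, and it was negative. In order of rising Ccr2, the 7 Het mice were at 2.81, 3.66, 4.23, 6.19, 6.71, 7.60 and 9.42 CPM of Ccr2. Their Plac8 levels in the same order were 1.62, 1.43, 1.33, 1.03, 0.996, 0.845 and 0.667 CPM, a complete reversal of order. Pearson's r was -0.976 (exact permutation test, two-sided, p = 0.000198, adjusted p = 0.00417) and Spearman's rho was -1 (exact p = 0.000397, adjusted p = 0.00833). It was -0.971 without the 2 mice farthest from the median and between -0.984 and -0.972 with each Het mouse left out. Without Het mouse 2, 3 or 4, the 6 mice that remained gave no relation with an adjusted p below 0.05. With each other Het mouse left out, also over 6 mice, 1 relation still had an adjusted p below 0.05. The call therefore depended on which Het mouse was left out, while r stayed between -0.984 and -0.972. The Plac8 levels of the Het mice come from 8 to 19 counts per mouse. Het mice 2 and 3 had 15 counts each, so only their library totals set their order. In WT littermates r was -0.231 and in Homo mice -0.201 (adjusted p = 0.817 for both), and the difference between genotypes was not tested.

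**Figure D5:**
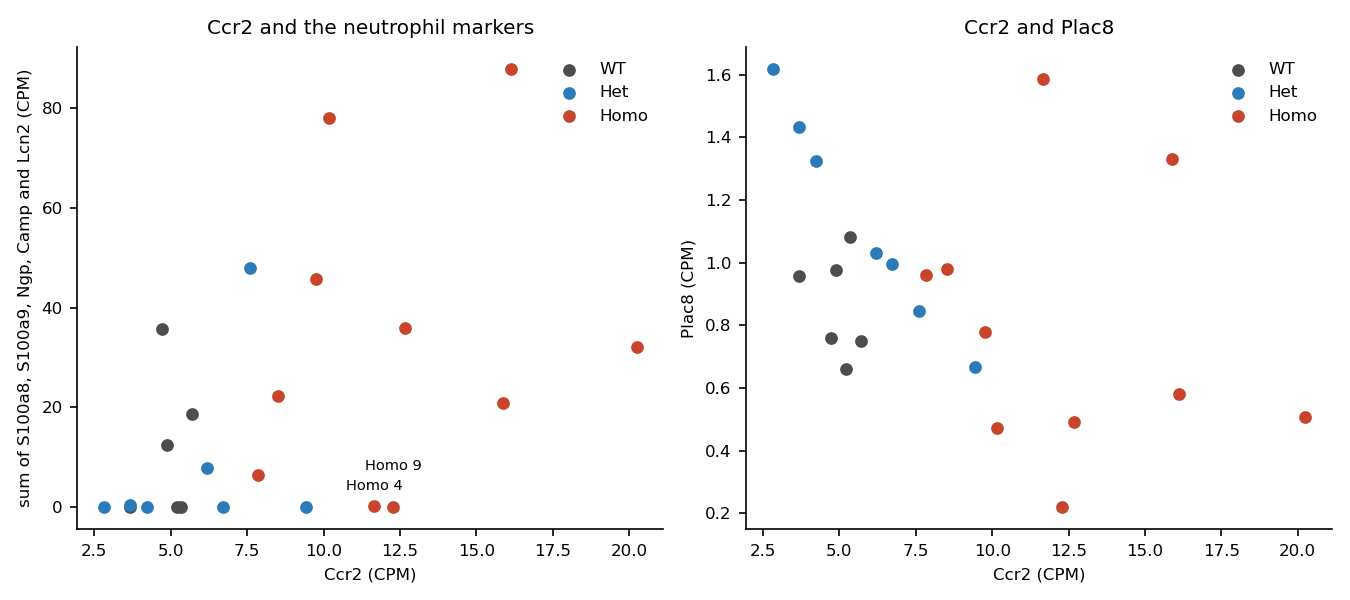
CPM of Ccr2 (x axis) against the summed CPM of the 5 neutrophil markers (left) and the CPM of Plac8 (right), 1 point per mouse, grey for WT, blue for Het and red for Homo. On the left, Homo mice 4 and 9 lie at 0.183 and 0 CPM of the neutrophil markers with Ccr2 at 11.7 and 12.3 CPM, and on the right the 7 Het mice fall from 1.62 to 0.667 CPM of Plac8 as Ccr2 rises.

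A fit of all genes with the log2 CPM of Ccr2 beside genotype and sex asked the same over all 23 mice. Per doubling of Ccr2, the fitted log2 change was 2.56 for Camp (standard error 1.08, unadjusted p = 0.0256, adjusted p = 0.517), and between 1.92 and 2.34 for the other 4 neutrophil markers (adjusted p between 0.593 and 0.666). For Plac8 it was -0.71 (standard error 0.34, unadjusted p = 0.049, adjusted p = 0.554). edgeR called 0% of the 12907 genes, with 1159 at an unadjusted p below 0.05, and no other tool was run on this fit. All 5 neutrophil slopes were above 0, and none passed the adjusted threshold. Without Het mouse 8 they were 1.06 for S100a8, 1.29 for S100a9, 1.49 for Ngp, 1.75 for Camp and 1.24 for Lcn2, and in the 10 Homo mice alone 0.773, 1.03, 1.11, 1.505 and 1.03 in the same order.

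With the log2 summed level of the neutrophil markers as a covariate, the Ccr2 difference was still called. It was 1.16 between Homo and WT mice (standard error 0.23, adjusted p = 0.00256) and 0.99 between Homo and Het mice (standard error 0.22, adjusted p = 0.00418). With Fos as a covariate, which was at 824 CPM or higher in Homo mice 1, 2, 6 and 7 and at 6.999 CPM or lower in the other 19 mice, it was 1.29 (adjusted p = 0.0039) and 1.15 (adjusted p = 0.0034). Both covariates were added after the data were seen.

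Likeness of pattern was measured by the correlation of log2 CPM over 23 mice, after genotype and sex were taken out, with 10923 genes of at least 1 mean log2 CPM as candidates. These values are descriptions with no test, and all come from the same libraries. For the neutrophil markers they span the 13 mice with counts and the 10 at or near 0, and within the 13 mice r between these markers was 0.782 to 0.968. Over all 23, S100a9 was most like Ngp (r = 0.994), S100a8 (r = 0.986) and Camp (r = 0.978), and Lcn2 was most like Ltf (r = 0.974). No neutrophil marker was among the 3 genes most like Ccr2, which were Larp1 (r = 0.786), Adar (r = 0.767) and Map3k5 (r = 0.74). The values of Ccr2 with the neutrophil markers were between 0.280 and 0.368, and with Plac8 -0.524. Plac8 was most like Ifitm10 (r = 0.843), Cdkn1c (r = 0.807) and 1700003F12Rik (r = 0.795).

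Of 20 other monocyte markers, a list that also held Chil3 and Cd177, which neutrophils express too, 9 were tested, and 1 was called higher between Homo and WT mice, where 1.65% of all genes tested were. It was Klra2, a receptor of the Ly49 family, at 0.0489 ± 0.0608 CPM (SD, n = 6) in WT littermates and 1.03 ± 0.558 CPM (SD, n = 10) in Homo mice (fitted at 4.19 ± 0.87 on the log2 scale, adjusted p = 0.00283). The call rests on 4 counts of Klra2 in the whole WT group and 3 to 26 in each Homo mouse. Het mice were at 0.273 ± 0.422 CPM (SD, n = 7), with 1.19 CPM in Het mouse 5, and 4 of 10 Homo mice lay above all others. Ms4a6c had a log2 fold change of 0.36 (adjusted p = 0.0225), under the fold change threshold. Of 24 other neutrophil markers in the table, 5 passed the filter and none was called, with Mmp9 at -2.07 (adjusted p = 0.0675) and Ltf at 1.12 (adjusted p = 0.578). The residual r of Ccr2 with Klra2 was -0.131 and with Ltf 0.356.

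The ligands of CCR2 were higher in Homo mice. Ccl2 was between 1.08 and 2.02 CPM in WT littermates, between 0.767 and 2.15 CPM in Het mice and between 3.16 and 32.8 CPM in Homo mice, so that no Homo mouse overlapped the others. Ccl12 did not overlap either, with 34.3 CPM in the highest WT or Het mouse and 36.2 to 266 CPM in Homo mice. For Ccl7, 8 of 10 Homo mice lay above all others. The log2 fold changes of Homo against WT mice were 3.36 for Ccl2 (adjusted p = 0.000355), 3.31 for Ccl7 (adjusted p = 0.00293) and 1.57 for Ccl12 (adjusted p = 0.00296), and 3 of 3 ligands were called higher, against 1.65% of all genes tested. In the 4 Homo mice with high Fos, Ccl2 was at 27.0 CPM or higher, and in the other 6 at 12.4 CPM or lower. Ccr2 did not divide in that way, with 8.51 to 16.1 CPM in the 4 and 7.85 to 20.2 CPM in the 6.

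Among the gene families and partners below, 2 genes were called between Homo and WT mice, both of them myeloid transcription factors. Of all genes tested, 3.4% were called in that comparison. Of 8 chemokine receptor genes near Ccr2, 6 were tested and none was called between Homo and WT mice, with Xcr1 at 1.44 (adjusted p = 0.113) and Ccr1l1 at -0.77 (adjusted p = 0.0882). Of 8 other S100 genes 4 were tested and none was called. Of 7 receptors for the secreted products of the neutrophil markers, such as Tlr4, Tlr2 and the lipocalin 2 receptor Slc22a17, 6 were tested and none was called. Of 10 myeloid transcription factors 8 were tested and 2 were called higher, against 1.65% of all genes tested, Nfkbiz (log2 fold change 1.68, adjusted p = 0.000587) and Klf4 (2.39, adjusted p = 0.0178). Klf4 was at 4.79 CPM or higher in the 4 Homo mice with high Fos and at 0.471 to 2.12 CPM in the other 6. WT and Het mice were at 0.271 to 3.66 CPM of Klf4. Nfkbiz was at 29.2 CPM or higher in the 4 and at 15.4 to 22.3 CPM in the 6, against 14.1 CPM in the highest WT or Het mouse.

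Per kilobase of exon, the mean levels of 4 neutrophil markers were above those of the monocyte markers in Homo mice. The levels were 13.3 ± 12.7 CPM per kb for S100a9, 12.45 ± 11.1 for S100a8, 9.56 ± 9.02 for Ngp and 5.80 ± 5.17 for Camp (SD, n = 10). Neighbours in this order differ by less than their spread over mice. Ccr2 followed at 1.85 ± 0.575 CPM per kb, Lcn2 at 0.502 ± 0.557, Plac8 at 0.497 ± 0.267 and Ly6c2 at 0.0812 ± 0.114. In WT littermates Ccr2 was at 0.728 ± 0.104 CPM per kb (SD, n = 6), a narrow spread beside 3.43 ± 4.75 for S100a8.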

How the data were processed

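The authors used OmicSoft OSA4 to align single-end reads of 50 bases to mm10, with gene models of Ensembl R84, and the deposited values are expected counts per gene estimated with RSEM, not normalized for depth or length. The strand setting and the treatment of reads with several alignments are not given in the sources used here. The table holds 23 of 25 labelled mice, since the authors left out 1 WT female and 1 Het male for few uniquely mapped reads and high duplication.

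The counts were rounded to whole numbers, normalized by TMM and filtered by filterByExpr in edgeR 4.0.16 (R 4.3.3). Genotype and sex were fitted together over all 23 mice, and log2 CPM used a prior count of 2. DESeq2 1.42.0, limma 3.58.1, other filters, other normalization and each mouse left out were alternatives. The tests of Homo against WT mice, of Het against WT mice and of the slope on Ccr2 were tried on simulated data. Those of Homo against Het mice, of sex and of the Homo effect by sex were not. Correlations used exact permutations up to 7 mice and 100000 random permutations above that. Named genes were the 8 markers, from each list up to 4 with the smallest p between Homo and WT mice or the highest level, the 3 genes most like each marker tested, and Fos. The granule genes counted beside the neutrophil markers were named after their values were seen. The members and lists were chosen with earlier results of these data known. Each library is 1 mouse, so p-values measure the spread between mice. Symbols came from GENCODE M21 for 42929 of 43411 identifiers.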

Additional observations from a re-analysis of the deposited data

Results flagged for a closer look

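In 24 groups of 6 to 10 mice, 8 markers in 3 genotypes, 9 held a mouse far from the others by Dixon's test. For normally distributed values chance would give about 1 in 20 groups. Many of these values were 0, and a group where only 1 mouse has a count is flagged in any case. The 9 groups therefore cannot be set against that rate. The markers were not independent, and 5 of the 9 were Het mouse 8. That mouse was at 13.3 CPM of S100a8 (the next Het mouse at 2.89), 7.27 of S100a9 (next 1.10), 19.1 of Ngp (next 2.89), 6.34 of Camp (next 0.756) and 2.11 of Lcn2 (next 0.206). WT mouse 6 was at 8.44 CPM of S100a8, and the next WT littermate at 3.08. For Ly6c2, WT mouse 6 was at 0.0761 CPM and Het mouse 4 at 0.167 CPM where the other mice of their groups were at 0, from 1 and 2 counts, and Homo mouse 5 was at 1.02 CPM with the next at 0.419. The cause of these values was not tested.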

How the results depend on the processing

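Ccr2 stayed called between Homo and WT mice under all 12 other settings (log2 fold change 1.16 to 1.34) and with each of 23 mice left out (1.19 to 1.35), and between Homo and Het mice likewise (0.99 to 1.18, and 1.02 to 1.28). Without a fold change threshold 1645 genes were called between Homo and WT mice and 2937 between Homo and Het mice. The latter count was 543 with the Homo mice of the 400s alone and 473 with Fos as a covariate, which was added after the data were seen, and leaving out 1 mouse gave 334 to 474 and 660 to 943 genes. Between Homo and Het mice, 3 markers were called with the 300s alone, and 1 to 6 with 1 mouse left out, 6 without Het mouse 8 and 2 without Homo mouse 9. With the 400s alone, Lcn2 was at -1.24 against WT and -0.63 against Het mice. Between Het and WT mice no gene was called under any setting run, S100a8 was at -0.0804 by DESeq2, -0.17 by limma-voom and -0.0141 without sex, and with 1 mouse left out the ranges were -0.0200 to 0.27 for Ccr2, -1.75 to 0.78 for S100a8, -2.80 to 0.0554 for S100a9, -2.74 to 0.0278 for Ngp, -3.10 to 0.0471 for Camp and -3.12 to 0.17 for Lcn2. The number of markers related to Ccr2 was 0 to 1 with 1 mouse left out, 0 without Het mouse 2, 3 or 4. It stayed at 1 in 20 of the 23 fits with 1 mouse left out, those with another Het mouse left out included. Relations over 5 WT littermates were not computed. The causes were not tested. No paired analysis was possible because replicate numbers were given in accession order and each animal is in 1 group. Low counts limit Ly6c2, Plac8, Lcn2 and Klra2.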
